A study of Mus musculus with 20 samples.

Results

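The levels of 9 astrocyte genes were followed through 20 RNA sequencing libraries made from slices of mouse hypothalamus. Of these, 6 (Fam107a, Glul, Mertk, Htra1, Sdc4 and F3) were chosen by their fold change, since their counts were lower in pair-fed than in control mice in these same libraries, and 3 (Aqp4, Aldh1l1 and Slc1a2) as astrocyte genes that had stayed level in that comparison. All 9 of the 55471 genes in the table were found by symbol in the annotation, and all 9 were among the 17893 genes tested after the filter on low counts. The comparison of pair-fed with control mice therefore chose the genes, and its values are given here as a description without a test.

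The mice were on control diet fed ad libitum (7 libraries), on risperidone diet fed ad libitum (7 libraries) or on risperidone diet under pair-feeding (6 libraries), a condition in which body weight, per the labels, did not differ from that of control mice. Risperidone is an antipsychotic drug that acts mainly on dopamine and serotonin receptors, and the diet lasted 4 weeks. All mice were of strain C57BL/6 and of wild type genotype, the labels state neither age nor sex, and no pair-fed group on control diet was among the libraries. Nothing in the labels ties each library to a mouse of its own, and p-values therefore cover only the spread between libraries, which may in part be technical.

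Astrocytes are glial cells that clear glutamate from synapses, return it to neurons as glutamine, regulate water and potassium at blood vessels and take up cell debris. Glutamate enters them through transporters such as that coded by Slc1a2 and is converted to glutamine by glutamine synthetase, the product of Glul. They also respond to circulating hormones, among them glucocorticoids, which act through a receptor that binds DNA at paired half-sites.

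Total counts lay between 17316043 and 18606543 in 19 libraries, and ad libitum risperidone library 3 held 9748005, with 32.8% of them in ribosomal RNA genes and genes similar to these, a share of 2.52% to 5.99% elsewhere. Ad libitum risperidone library 1 had a summed level of 3985 CPM (counts scaled to library size) over 9 markers of cortex and hippocampus neurons, against 668 to 924 CPM in the other libraries of its group, 661 to 758 CPM in control and 592 to 703 CPM in pair-fed libraries. The 10 hypothalamus markers were detected in each group, with sums of 1173 to 1558 CPM in control, 529 to 1348 CPM in ad libitum libraries, and 879 to 1325 CPM in the pair-fed group. For the 9 genes, the difference between the risperidone groups is therefore also given without ad libitum libraries 1 and 3. Leaving these out does not remove a lower hypothalamus marker level in the ad libitum group. Apart from ad libitum library 4, each ad libitum sum lay below every control sum, the next highest being 1112 CPM. All 10 markers had lower values in ad libitum than in control mice. Ependyma marker sums, apart from library 4, were likewise at most 50.35 CPM, against at least 50.67 CPM in control. The part of this shift in the member values was not tested.

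Promoter windows of 300 bases around annotated start sites, from RefSeq on GRCm38.p6, were available for 8 of the 9 genes, in 10 windows. They are shown for Mertk and Fam107a, which had the largest differences between the risperidone groups, and for Glul, the gene with the highest level, to compare what stands in front of genes that were lower together. Each was searched on both strands for the core of the glucocorticoid response element (G, any base, ACA, any 3 bases, TGT, any base and C), its half-site (TGTTCT), the TATA box (TATAAA) and the CCAAT box (CCAAT), and matches are in capitals.
Fam107a, internal start, chr14:8309730-8310029, minus strand: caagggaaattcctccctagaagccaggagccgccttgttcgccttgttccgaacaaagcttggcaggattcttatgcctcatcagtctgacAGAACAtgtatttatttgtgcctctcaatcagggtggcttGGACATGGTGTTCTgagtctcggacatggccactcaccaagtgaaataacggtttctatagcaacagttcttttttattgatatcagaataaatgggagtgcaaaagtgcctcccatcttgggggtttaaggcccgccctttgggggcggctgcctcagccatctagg
Fam107a, upstream start, chr14:8317558-8317857, minus strand: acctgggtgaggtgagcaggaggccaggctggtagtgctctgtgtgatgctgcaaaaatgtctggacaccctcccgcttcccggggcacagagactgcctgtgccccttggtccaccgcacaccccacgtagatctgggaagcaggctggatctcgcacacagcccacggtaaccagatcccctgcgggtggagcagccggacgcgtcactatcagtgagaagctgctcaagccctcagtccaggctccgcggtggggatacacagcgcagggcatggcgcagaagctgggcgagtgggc
Glul, chr1:153899679-153899978, plus strand: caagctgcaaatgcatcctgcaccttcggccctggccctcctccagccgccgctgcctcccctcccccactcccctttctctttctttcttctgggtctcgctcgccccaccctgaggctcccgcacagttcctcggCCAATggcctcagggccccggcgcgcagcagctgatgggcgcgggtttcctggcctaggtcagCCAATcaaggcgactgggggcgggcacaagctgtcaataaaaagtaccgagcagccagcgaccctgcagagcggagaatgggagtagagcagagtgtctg
Mertk, chr2:128698665-128698964, plus strand: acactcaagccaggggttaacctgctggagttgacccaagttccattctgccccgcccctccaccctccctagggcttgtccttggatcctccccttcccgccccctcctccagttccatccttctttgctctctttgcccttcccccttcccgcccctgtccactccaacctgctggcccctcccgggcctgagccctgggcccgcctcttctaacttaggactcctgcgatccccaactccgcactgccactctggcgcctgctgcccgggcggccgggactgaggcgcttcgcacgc

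The internal Fam107a window held 1 response element core, GGACATGGTGTTC, which begins 118 bases before the start and overlaps 1 of the 2 half-sites in the window. A core of this form stood in 156 of 32851 windows of the same length (0.475%), and a half-site in 19%. The remaining Fam107a window, whose start lies 2 bases away, held the same matches. The upstream Fam107a window and the Mertk window held none of the 4 motifs. The Glul window held 2 CCAAT boxes, 113 and 50 bases before the start, that of Htra1 held 1, and that of Aldh1l1, a reference gene that was not chosen as lower, held 2. A CCAAT box stood in 37.4% of all windows. The Sdc4 window held no match, and the F3 window held a TATA box on the opposite strand after the start. A match of letters is a description of the sequence, and these libraries do not measure binding to it.

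Among these genes the level per kilobase of exon (RPKM, from the counts and the union of annotated exons) spanned a wide range in control hypothalamus. Glul came first at 439 ± 9.48 RPKM (SD, n = 7), followed by Fam107a at 102 ± 4.30 RPKM and Slc1a2 at 77.3 ± 2.97 RPKM, and these did not overlap with their neighbours in the order. Htra1 (37.8 RPKM), Sdc4 (33.8 RPKM), F3 (30.4 RPKM) and Aqp4 (26.7 RPKM) came next, and each overlapped with its neighbour within that set of genes across control libraries. Aldh1l1 at 13.2 ± 0.439 RPKM and Mertk at 9.24 ± 0.411 RPKM were lowest and stood apart from each other. In pair-fed mice Fam107a, at 73.7 ± 7.47 RPKM (SD, n = 6), came after Slc1a2, at 75.6 ± 4.20 RPKM, and their ranges overlapped. The length of Slc1a2 sums over 12 annotated transcripts, so that its value per kilobase depends on which of these are used.

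The 5 genes other than F3 among those chosen as lower in pair-fed mice had ad libitum risperidone means of 0.928 to 1.07 times control. Their levels were lower in pair-fed mice on the same diet. For Mertk, 4 of 7 ad libitum libraries lay below every control library and 1 above. For Htra1, 4 lay above every control library and 1 below, and for Fam107a 4 lay above and 0 below. How often other genes had ad libitum libraries outside the control range, here and below, was not computed. Between the risperidone groups these 5 (Fam107a, Glul, Mertk, Htra1 and Sdc4) fell in pair-fed mice, and each of the 6 pair-fed libraries lay below each of the 7 ad libitum libraries. Over all genes tested, 0.285% were called lower and 0.112% higher in this comparison and 0.369% had pair-fed libraries wholly below the ad libitum ones. F3 and the 3 reference genes did not pass. The comparison shares its pair-fed libraries with the one on which the genes were chosen, so that its test is not independent of that choice. Since the drug came in the diet, the amounts of food and of risperidone eaten cannot be told apart in it. Since whole slices were sequenced, fewer astrocytes and less RNA per astrocyte cannot be told apart for a single gene. The summed level of 35 other astrocyte genes was 11290 to 11860 CPM in pair-fed libraries, within the 11260 to 12350 CPM of control libraries and the 10060 to 12210 CPM of ad libitum libraries.

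**Figure D1:**
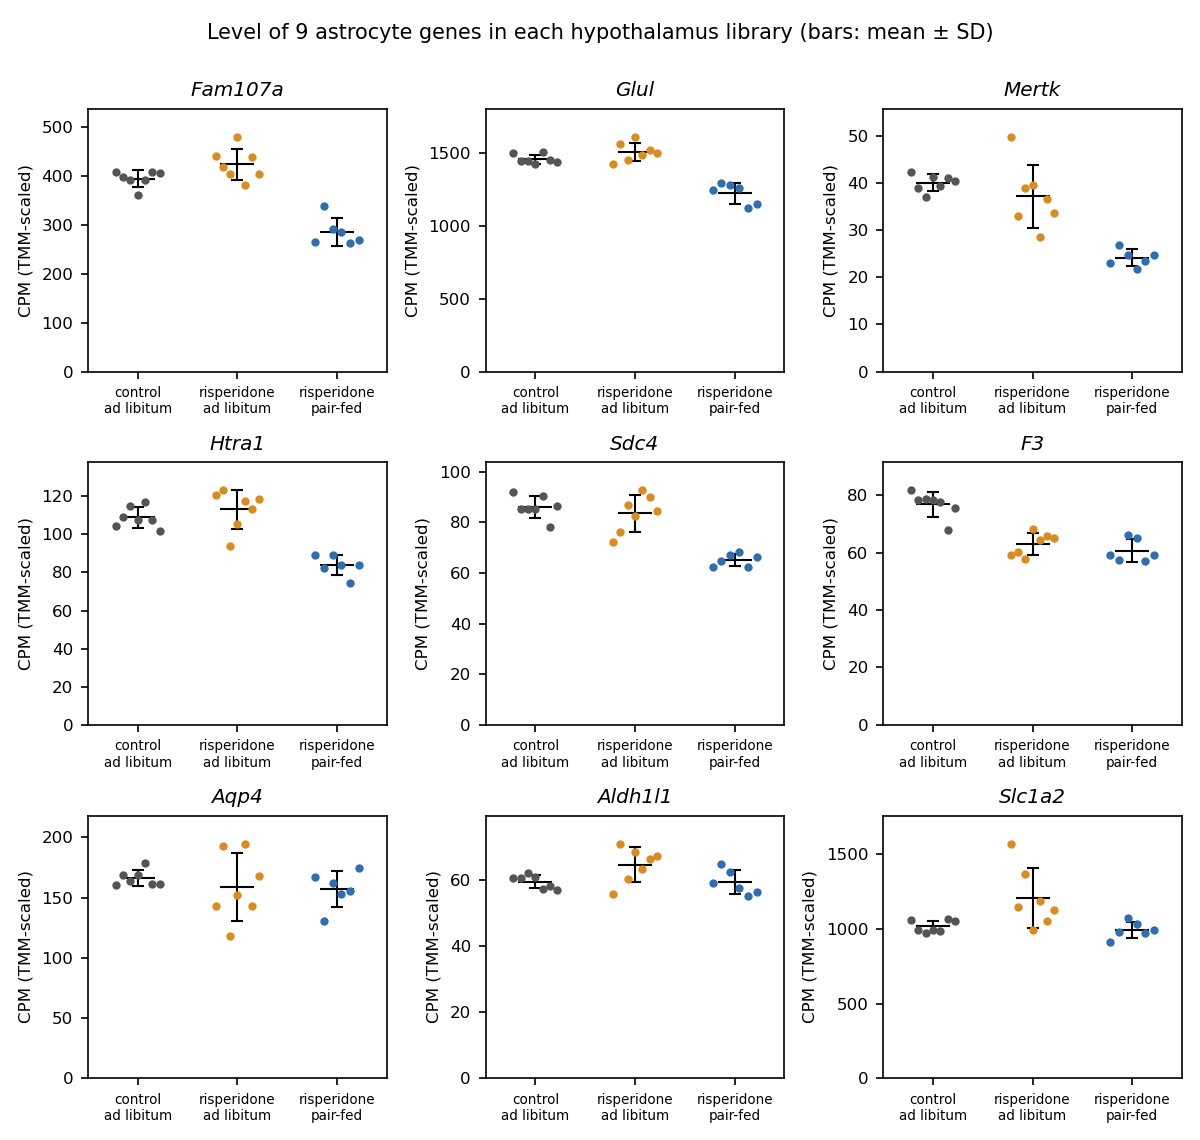
Level of each of the 9 genes (CPM, TMM-scaled, y axes from 0) in each library, by group, with 7, 7 and 6 libraries. Points are libraries and black bars the mean ± SD. For Fam107a, Glul, Mertk, Htra1 and Sdc4 the pair-fed points lie below the points of both other groups, for F3 both risperidone groups lie low, and Aqp4, Aldh1l1 and Slc1a2 overlap between groups.

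Fam107a codes for a protein that binds actin and is known as a gene induced by stress and glucocorticoids. The gene lies on chromosome 14 (GRCm38, 8296274 to 8318023; ENSMUSG00000021750) with no overlapping gene. Levels in CPM (lowest, median, highest) were 361, 399 and 408 in control, 382, 418 and 480 in ad libitum risperidone and 262, 277 and 339 in pair-fed risperidone. The pair-fed libraries lay below every library of the other groups, and among them library 2, at 339 CPM, was highest, with the next at 291 CPM. The pair-fed mean was 0.722 times the control mean and 0.673 times the ad libitum mean. The difference between pair-fed and ad libitum risperidone on the log2 scale was −0.57, with an SE of 0.0595 (adjusted p = 1.42e-05, edgeR). Against control the ad libitum difference was 0.10 (95% interval −0.01 to 0.22, adjusted p = 0.442) and the pair-fed difference −0.47 (SE 0.0593). Its paralog Fam107b, at 16.7 ± 1.58 CPM in control (SD, n = 7), differed from control by −0.10 (interval −0.28 to 0.07) in ad libitum mice and by 0.00 (interval −0.17 to 0.18) in the pair-fed group on the log2 scale, with adjusted p values of 0.617 and 1 in edgeR.

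Glul, the gene of glutamine synthetase, is an enzyme gene typical of astrocytes that oligodendrocytes also express. It lies on chromosome 1 from 153899944 to 153909723 (ENSMUSG00000026473), and 116 of its exonic bases are shared with Teddm2 on the opposite strand. Whether counting used the strand is not stated, so reads on bases shared with an opposite-strand gene, here and for Slc1a2 and Aldh1l1, cannot be told apart. Its CPM values (lowest, median, highest) were 1422, 1448 and 1505 in control, 1428, 1504 and 1611 in ad libitum and 1121, 1252 and 1297 in pair-fed libraries. These narrow ranges, with coefficients of variation of 2.16% to 5.88%, left the pair-fed group wholly below the others. Pair-fed and ad libitum risperidone differed by −0.30 (SE 0.0441, adjusted p = 0.00121, edgeR), the smallest difference among the 5 genes called. The ad libitum difference against control was 0.05 (95% interval −0.04 to 0.14, adjusted p = 0.662), and the pair-fed difference −0.25 (SE 0.0441).

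Mertk codes for a receptor tyrosine kinase through which astrocytes and microglia recognise and engulf dying cells and synapses. It is annotated on chromosome 2 from 128698956 to 128802894 (ENSMUSG00000014361). Control libraries held 36.9 to 42.3 CPM with a median of 40.4, ad libitum libraries 28.6 to 49.8 CPM with a median of 36.7, and pair-fed libraries 21.7 to 26.9 CPM with a median of 24.1. The ad libitum group was spread widely (coefficient of variation 18.1%, against 4.45% in control), with 4 of its libraries below every control library and library 1, the one with cortex markers, above them all. The pair-fed mean was 0.602 times the control mean, the lowest such ratio of the 9 genes. Between the risperidone groups the difference was −0.62 (SE 0.088, adjusted p = 0.000844, edgeR), and without ad libitum libraries 1 and 3 it was −0.51 (adjusted p = 7.69e-05). The ad libitum difference against control was −0.11 (interval −0.28 to 0.06, adjusted p = 0.591), and without those libraries −0.23 (adjusted p = 0.116). Microglia also express Mertk, and the 9 microglia markers summed to 213 to 286 CPM in control, 222 to 256 CPM in ad libitum libraries, and 230 to 273 CPM in the pair-fed group, with none at 0 in all libraries of a group. Their part in the Mertk values was not tested.

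Htra1 codes for a secreted serine protease that cuts matrix proteins and restrains signalling of the TGF-beta family. It is annotated on chromosome 7 from 130936111 to 130985660 (ENSMUSG00000006205), where Fgfr2 overlaps its span on the opposite strand without sharing exonic bases. The lowest, median and highest values were 102, 108 and 117 CPM in control, 93.7, 118 and 123 CPM in ad libitum and 74.5, 83.9 and 89.4 CPM in pair-fed libraries. The lowest ad libitum value came from library 3, which had the fewest counts, and it was still above every pair-fed library. Pair-fed mice differed from ad libitum mice by −0.43 (SE 0.0571, adjusted p = 0.000336, edgeR). Against control the log2 differences were 0.06 (interval −0.05 to 0.17, adjusted p = 0.688) for the ad libitum and −0.38 (SE 0.057) for the pair-fed group.

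Sdc4 codes for syndecan-4, a transmembrane heparan sulfate proteoglycan that binds matrix and growth factors. It is annotated on chromosome 2 from 164424247 to 164443887 (ENSMUSG00000017009) with no overlapping gene. In CPM the lowest, median and highest values were 78.1, 85.3 and 92.0 in control, 72.4, 84.3 and 92.6 in ad libitum and 62.2, 65.4 and 68.1 in pair-fed libraries. Control and ad libitum libraries covered nearly the same range, and the pair-fed libraries were tightly grouped below it, with a coefficient of variation of 3.70%. The difference between the risperidone groups was −0.36 (SE 0.0527, adjusted p = 0.00121, edgeR). Ad libitum mice differed from control by −0.04 (interval −0.15 to 0.06, adjusted p = 0.762) and pair-fed mice by −0.40 (SE 0.0525).

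F3 codes for tissue factor, the receptor that starts the extrinsic clotting cascade and that astrocytes express strongly in brain. Its ad libitum mean, 62.92 CPM, lay nearer to the pair-fed mean (60.65 CPM) than to the control mean (76.8 CPM). It is annotated on chromosome 3 from 121723537 to 121735048 (ENSMUSG00000028128) with no overlapping gene. Control libraries held 68.0 to 81.6 CPM (median 78.1), ad libitum libraries 57.8 to 68.3 CPM (median 64.3) and pair-fed libraries 57.0 to 66.0 CPM (median 59.2). Both risperidone groups were low, with 6 of 7 ad libitum and 6 of 6 pair-fed libraries below every control library. F3 was the 1 member that fell in ad libitum risperidone against control, where 0.0447% of all genes tested were called lower and 0.0168% higher. This comparison shares its control libraries with the one that chose the genes. The log2 difference was −0.29 (SE 0.0486, adjusted p = 0.0343, edgeR). That adjusted p ranged from 4.84e-05 to 0.084 over 31 other settings and was under the threshold in 22 of them. It was lost without control library 1, 2, 3, 4 or 5 (0.0661 to 0.0783) and without ad libitum library 2 (0.0642) or 7 (0.084), and was 0.0221 without ad libitum libraries 1 and 3. Between the risperidone groups the difference was −0.06 (interval −0.16 to 0.05, adjusted p = 0.649), and without ad libitum libraries 1 and 3 it was −0.09 (adjusted p = 0.51).

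**Figure D2:**
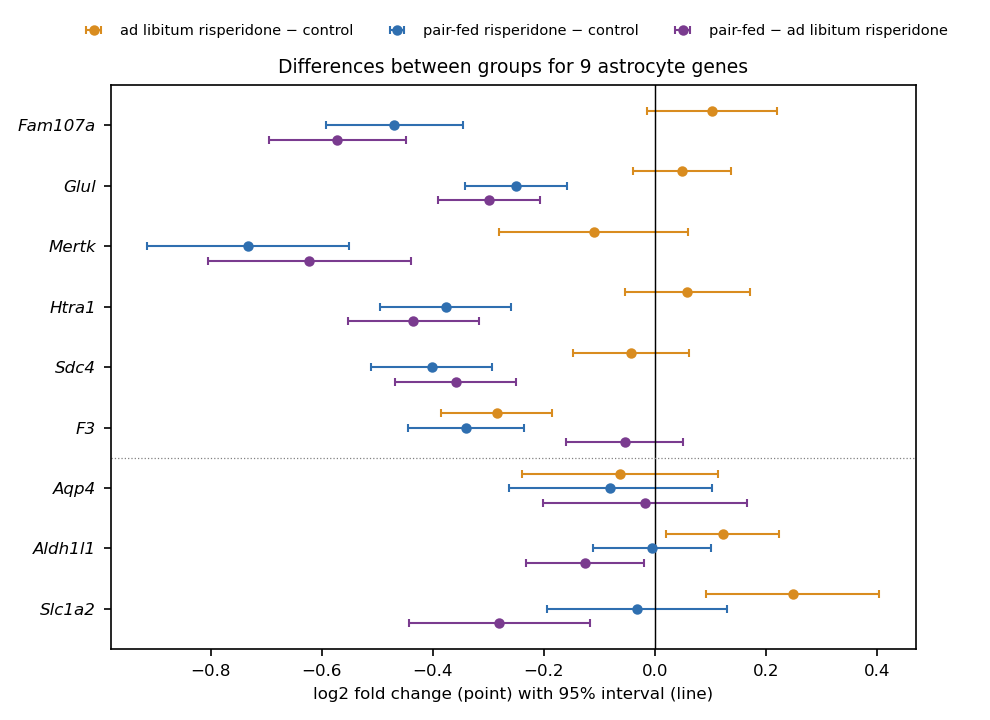
Log2 fold change (x axis) with 95% interval for each gene in 3 comparisons, from edgeR. The dotted line separates the genes chosen as lower in pair-fed mice from the references. The intervals of pair-fed minus ad libitum risperidone lie wholly below 0 for Fam107a, Glul, Mertk, Htra1, Sdc4, Aldh1l1 and Slc1a2, and that of ad libitum risperidone minus control lies wholly below 0 for F3 alone.

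In the comparison of pair-fed with control mice, which chose the genes, the log2 differences of the 6 genes ran from −0.73 (Mertk) to −0.25 (Glul). That all 6 lay past the threshold and had pair-fed libraries wholly below control is fixed by the choice and is no result. Over all genes 0.436% were called lower, 0.0503% were called higher and 0.861% had pair-fed libraries wholly below control, which are given as background alone. Without a low-count filter Glul did not pass there (adjusted p = 0.0661, edgeR).

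The 3 references are genes by which astrocytes are commonly recognised. Aqp4 codes for the water channel of astrocyte endfeet, Aldh1l1 for a folate enzyme used as an astrocyte marker and Slc1a2 for the main glutamate transporter. Pair-fed mice differed from control by −0.08 (interval −0.26 to 0.10) for Aqp4, −0.01 (−0.11 to 0.10) for Aldh1l1 and −0.03 (−0.19 to 0.13) for Slc1a2, which restates how they were chosen.

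The ad libitum group is where the references were less level. Slc1a2 (chromosome 2 from 102658659 to 102790784, ENSMUSG00000005089; 189 exonic bases shared with Gm13872 on the opposite strand) was at 970 to 1064 CPM in control (median 992), 990 to 1569 CPM in ad libitum libraries (median 1146) and 910 to 1071 CPM in pair-fed libraries (median 986). The 2 highest ad libitum values, 1569 and 1365 CPM, were those of libraries 1 and 3, and 5 of 7 ad libitum libraries lay above every control library. Against control its difference was 0.25 (interval 0.09 to 0.40, adjusted p = 0.193), and 0.12 (adjusted p = 0.281) without those libraries. Pair-fed minus ad libitum risperidone gave −0.28 (interval −0.44 to −0.12, adjusted p = 0.135, edgeR; 0.0437 with DESeq2), and −0.15 (adjusted p = 0.177) without them. The cortex and hippocampus markers, for which sums by group were given above and of which none was at 0 in all libraries of a group, move with library 1, and their part in the Slc1a2 level was not tested.

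Aldh1l1 (chromosome 6 from 90486427 to 90600203, ENSMUSG00000030088) shares 499 exonic bases with the predicted gene Gm15756 on the opposite strand. It had 57.1 to 62.0 CPM in control (median 60.5), 55.8 to 70.9 CPM in ad libitum libraries (median 66.4) and 55.3 to 64.8 CPM in pair-fed libraries (median 58.4). Thus 5 of 7 ad libitum libraries lay above all control libraries. Against control the ad libitum difference was 0.12 (interval 0.02 to 0.22, adjusted p = 0.307). Its difference of pair-fed from ad libitum mice was −0.13 (interval −0.23 to −0.02, adjusted p = 0.306), and −0.18 (adjusted p = 0.0377) without ad libitum libraries 1 and 3. It passed there and with limma-voom, which are 2 of 31 other settings. Aqp4 (chromosome 18 from 15389496 to 15410982, ENSMUSG00000024411) was at 161 to 179 CPM in control (median 164), 118 to 195 CPM in ad libitum libraries (median 153) and 131 to 175 CPM in pair-fed libraries (median 159). Its lowest value was that of ad libitum library 3, and its intervals included 0 in all 3 comparisons. Pair-fed minus ad libitum risperidone gave −0.02 for Aqp4 (adjusted p = 0.958), and −0.12 (adjusted p = 0.597) without ad libitum libraries 1 and 3.

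Within each library the genes chosen as lower can be set against the mean log2 CPM of the 3 references. For Htra1 this relative level was −0.99 ± 0.0699 in control, −1.02 ± 0.0871 in ad libitum and −1.32 ± 0.0736 in pair-fed libraries (log2 scale, SD, n = 7, 7 and 6), and the highest pair-fed value, −1.22, lay below the lowest control value of −1.07 and the lowest ad libitum value of −1.19. Mertk had −2.43 ± 0.0617 in control, −2.64 ± 0.306 in ad libitum and −3.12 ± 0.118 in pair-fed libraries. Its highest pair-fed value, −2.91, was above the lowest ad libitum value of −3.09, so these groups overlapped. Glul had 2.76 ± 0.0282, 2.71 ± 0.108 and 2.54 ± 0.0912, and its highest pair-fed value, 2.68, was above the lowest ad libitum value. Fam107a had 0.87 ± 0.0662, 0.88 ± 0.171 and 0.44 ± 0.155, and pair-fed library 2, which had the lowest Aqp4 of its group, stood at 0.74, above the lowest control (0.73) and ad libitum (0.64) libraries. On this relative scale Htra1 was thus the 1 gene of the 6 whose pair-fed libraries lay below all ad libitum libraries. The ad libitum value nearest to them was that of library 3, which had the fewest counts. How many of all genes are separated in this way on this scale was not computed, and nothing is read from it. Both the genes and the references were chosen on pair-fed against control mice. Sdc4 had −1.33 ± 0.0731 in control, −1.46 ± 0.176 in ad libitum and −1.69 ± 0.046 in pair-fed libraries, where the pair-fed range lay below that of control and overlapped that of ad libitum libraries. F3 had −1.49 ± 0.0806 in control, −1.87 ± 0.137 in ad libitum and −1.79 ± 0.0646 in pair-fed libraries. The spread was larger in the ad libitum group for each of the 6 genes, where the references themselves varied.

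**Figure D3:**
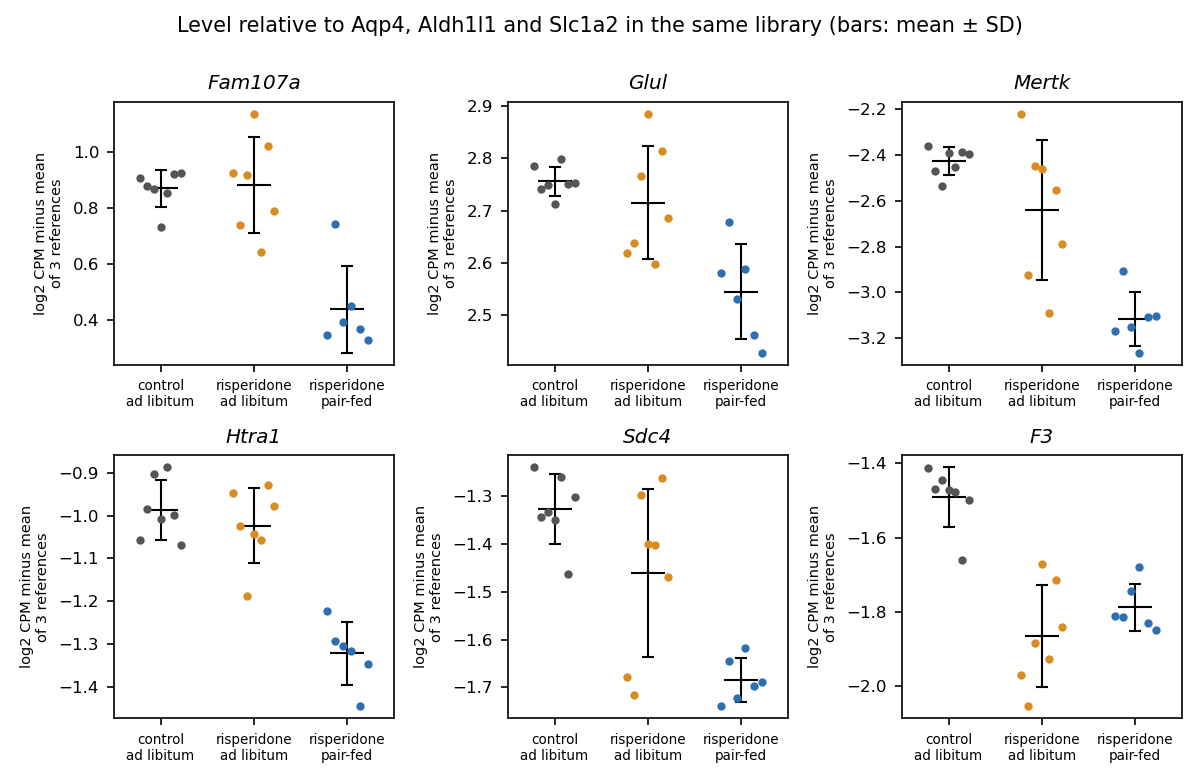
Log2 CPM of each of the 6 genes minus the mean log2 CPM of Aqp4, Aldh1l1 and Slc1a2 in the same library (y axes do not start at 0). Points are libraries and bars the mean ± SD. Pair-fed libraries are lowest for Fam107a, Glul, Mertk, Htra1 and Sdc4 on average, and ad libitum libraries are lowest on average for F3.

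Of 35 further genes with astrocyte expression, 2 were lower and 0 higher in pair-fed mice against control, and 1 was lower and 0 higher in pair-fed against ad libitum mice. These are shares of 5.71% and 2.86% called lower, against 0.436% and 0.285% over all genes tested, in a list chosen with earlier results of these data known. Their medians were −0.02 and −0.01, against 0.00 and 0.00 over all genes tested. Cbs, the enzyme that makes cystathionine from homocysteine, fell in both comparisons, from 39.1 ± 2.15 CPM in control and 39.8 ± 2.82 CPM in ad libitum to 33.0 ± 0.786 CPM in pair-fed mice (−0.24, adjusted p = 0.0125, and −0.27, adjusted p = 0.00757, edgeR). Without ad libitum libraries 1 and 3 the latter was −0.29 (adjusted p = 0.00274). Gjb6, which codes for the gap junction protein connexin 30, fell from 114 ± 5.97 CPM in control to 88.7 ± 8.60 CPM in pair-fed mice (−0.36, adjusted p = 0.00452) and was at 101 ± 9.21 CPM in ad libitum mice, between them. It was called in pair-fed against ad libitum mice with limma-voom (adjusted p = 0.048) and without ad libitum libraries 1 and 3 (−0.26, adjusted p = 0.0201), and not as reported (−0.19, adjusted p = 0.215). In ad libitum mice against control 0 of the 35 passed with edgeR, 1 with DESeq2 and 0 with limma-voom. With edgeR 5 had an unadjusted p under 0.05, which is 14.3% of the list against 13.1% over all genes tested. Sox9, the astrocyte transcription factor that DESeq2 called, had 0.29 (interval 0.14 to 0.45, adjusted p = 0.135 in edgeR).

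**Figure D4:**
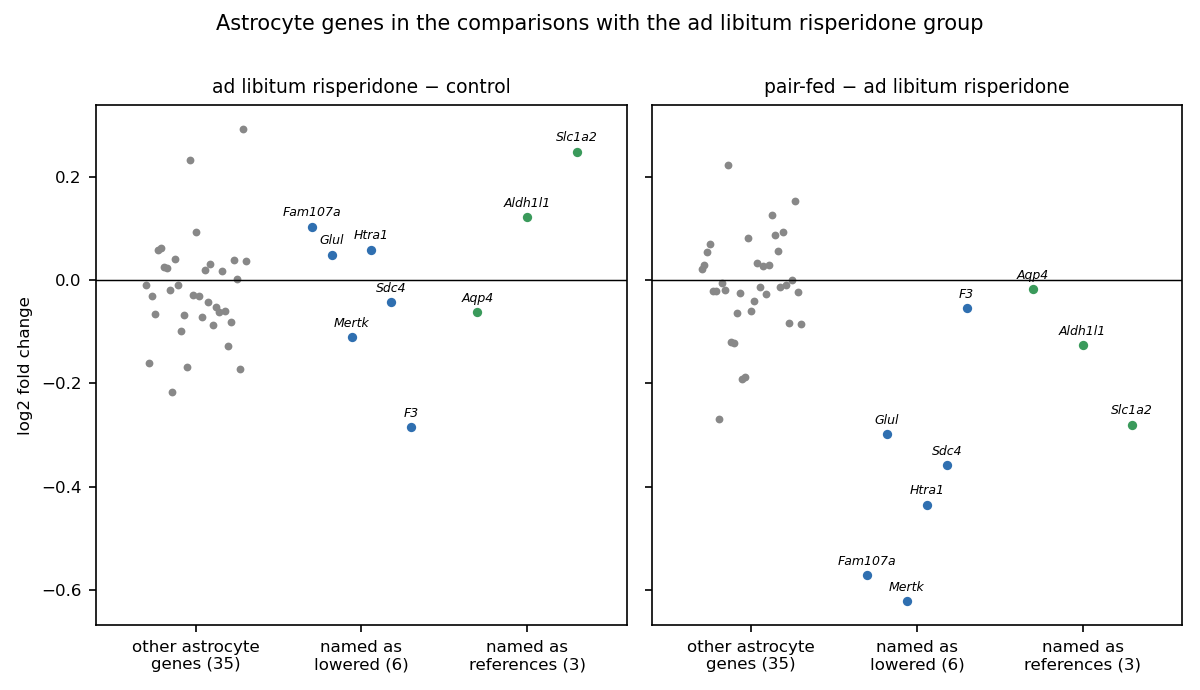
Log2 fold change (y axis) of 35 other astrocyte genes, the 6 genes chosen as lower and the 3 references, in ad libitum risperidone minus control (left) and pair-fed minus ad libitum risperidone (right). Points are genes. On the right, Fam107a, Mertk, Htra1, Sdc4 and Glul lie below all of the 35 other genes, the lowest of which is Cbs at −0.27. The reference Slc1a2, at −0.28, also lies below all 35.

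The pathways in which the members act showed no further calls. In 6 lists (glutamate and glutamine handling, engulfment, clotting and fibrinolysis, heparan sulfate proteoglycans, HtrA proteases with the TGF-beta pathway, and Fam107b) 71 of 77 genes were tested. With edgeR, DESeq2 and limma-voom 0 passed in any of the 3 comparisons, while with edgeR 14 had an unadjusted p under 0.05 in ad libitum against control, 6 in pair-fed against control and 7 in pair-fed against ad libitum mice. These are 19.7%, 8.45% and 9.86% of the 71 genes, against 13.1%, 6.66% and 13.5% over all genes tested. The glutamine transporter gene Slc38a3 had 0.17 (interval 0.04 to 0.31, adjusted p = 0.278, edgeR) in pair-fed against ad libitum mice, opposite in sign to Glul. Its pair-fed mean, 75.6 CPM, was near that of control (75.7 CPM), and the ad libitum mean was lower (66.9 CPM). Axl, a receptor of the same family as Mertk, had −0.14 (interval −0.24 to −0.04, adjusted p = 0.24) in ad libitum mice against control. The clotting inhibitor gene Tfpi, whose product blocks the tissue factor complex, had −0.61 (interval −1.06 to −0.17, adjusted p = 0.253) there.

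Of 95 tested genes in 13 lists of markers of neurons, oligodendrocytes, their precursors, microglia, perivascular macrophages, endothelium, pericytes with fibroblasts, ependyma, tanycytes, choroid plexus, cortex with hippocampus, thalamus and hypothalamus, 0 passed with edgeR in any of the 3 comparisons. At an unadjusted p under 0.05 there were 32 in ad libitum against control, 10 in pair-fed against control and 32 in pair-fed against ad libitum mice. These are 33.7%, 10.5% and 33.7% of the 95 genes, against 13.1%, 6.66% and 13.5% over all genes tested. DESeq2 called 3, 1 and 2 of them, and limma-voom 0, 3 and 1. In pair-fed against ad libitum mice the medians were −1.10 for cortex and hippocampus, −0.64 for choroid plexus and −0.26 for thalamus markers. They were −0.19 for oligodendrocyte precursors, 0.24 for hypothalamus, 0.26 for pericytes with fibroblasts and 0.32 for ependyma. Medians of the remaining lists ran from −0.04 to 0.04. The part of these shifts in the member values was not tested. Without ad libitum libraries 1 and 3, the 5 members remained called with log2 differences of −0.57 (Fam107a), −0.33 (Glul), −0.51 (Mertk), −0.46 (Htra1) and −0.39 (Sdc4). The ad libitum libraries that remained, except library 4, still had hypothalamus marker sums below every control library.

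Across the 20 libraries, the genes whose log2 CPM was most like the mean standardized level of the 6 genes were Cdkn1a, a cell cycle inhibitor gene (Pearson r = 0.94), Mfsd2a, the lipid transporter gene of the blood-brain barrier (0.934), Tsc22d3, the glucocorticoid-induced leucine zipper gene (0.925), Smim3 (0.922) and Slc2a1, a glucose transporter gene (0.907), out of 13807 genes ranked. These values include the differences between groups, and the 6 genes were chosen on 1 of these differences. Genes that were also lower in pair-fed mice rank high through that choice, so the ranking is a description and no test. With the group means subtracted, other genes came first, led by Pax6 (0.856), Rnf103 (0.816) and Pitpnb (0.815), and they are given as a description of 20 libraries that share scaling. Among 19 genes that respond to or receive glucocorticoids, 11 fell in pair-fed mice against control, 6 in pair-fed against ad libitum and 2 in ad libitum against control (57.9%, 31.6% and 10.5%, against 0.436%, 0.285% and 0.0447% over all genes tested). With DESeq2 they were 11, 7 and 5, with limma-voom 13, 7 and 6, and without ad libitum libraries 1 and 3 they were 13, 7 and 4. The list was chosen with earlier results of these data known, so that its shares are a description and no test of the list. Cdkn1a fell by 0.81 and Plin4, a lipid droplet gene, by 1.67 in pair-fed against ad libitum mice (adjusted p = 1.09e-06 and 0.000279, edgeR), and without those libraries by 0.84 and 1.57. In ad libitum mice against control Ddit4 and Klf15 fell by 0.30 and 0.31 (adjusted p = 0.0343 each), calls that each held in 20 of 31 other settings. The count there was 0 with the replicate block, in the fit to 2 groups, and without any 1 of control libraries 1 to 6 or ad libitum library 2 or 7, and 1 without ad libitum library 6.

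The deviations of libraries from their group means, which leave out the differences between groups, were compared between members. Of 36 pairs, 0 passed by Pearson or by Spearman correlation after Benjamini-Hochberg adjustment (two-sided permutation of libraries within groups, 100000 resamples). For Pearson's r, 8 pairs had an unadjusted permutation p under 0.05. They were 4 of 15 pairs among the genes chosen as lower, 3 of 18 between these and the references, and 1 of 3 among references. The share among pairs of other genes, which share the same scaling, was not computed. The 15 pairs among the 6 genes chosen as lower had Pearson r from −0.468 to 0.611 with a median of 0.0893 and were positive in 8. The strongest pair was Glul with Aldh1l1 (r = 0.722, permutation p = 0.00171, adjusted p = 0.0616; Spearman rho = 0.72, permutation p = 0.00241, adjusted p = 0.0679; r = 0.689 without the 2 libraries farthest from the median deviation of Glul). Fam107a with Glul had r = 0.611 (permutation p = 0.0181, adjusted p = 0.13; rho = 0.499, permutation p = 0.0459, adjusted p = 0.207), which was 0.394 without the 2 libraries farthest from the median deviation of Fam107a. Fam107a with the reference Aqp4 had r = −0.471 (permutation p = 0.0667, adjusted p = 0.267; rho = −0.692, permutation p = 0.00377, adjusted p = 0.0679), and r = −0.355 without the 2 farthest libraries. Without ad libitum libraries 1 and 3 this was the strongest of the 36 pairs, with r = −0.756 (permutation p = 0.00476, adjusted p = 0.0571) and rho = −0.814 (permutation p = 0.00044, adjusted p = 0.0158, which passed), and r = −0.578 without the 2 farthest of those libraries. Glul with Aldh1l1 then had r = 0.658 (permutation p = 0.0194, adjusted p = 0.14).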

How the data were processed

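Read pairs of 150 bp from hypothalamus slice RNA were obtained by DNBseq technology, per the labels' protocols. The authors deposited raw counts of reads per gene, 1 column per library. STAR, featureCounts and DESeq2 and the builds GRCm38 and mm10 are named, per the submitters' processing notes; no source used here gives versions, annotation release, strand setting or filters. Identifiers were matched to GENCODE M21 (GRCm38), 55230 of 55471. Gene counts entered edgeR 4.0.16 (R 4.3.3) and its quasi-likelihood test (TMM, filterByExpr with a minimum count of 10, 1 model of 3 groups, two-sided, Benjamini-Hochberg over 17893 genes, threshold 0.05). Standard errors and 95% intervals come from the F statistic. Log2 CPM values used a prior count of 2. Alternatives were other scalings and filters, DESeq2 1.42.0, limma 3.58.1 (voom with quality weights), robust dispersions, fits to 2 groups, a replicate block and leaving out libraries. The fit was tested on simulated data. The members and lists were chosen with earlier results of these data known. Named genes were the members, from each list the up to 2 genes per direction and comparison with the smallest p (1 where none passed) and the 5 most similar genes per measure, of which the text prints a part. Promoter windows on chromosome 18 were not used, and the identifier of 1 list gene was not matched.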

Additional observations from a re-analysis of the deposited data

Results flagged for a closer look

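In 2 of the 27 sets of libraries examined (9 genes in 3 groups) 1 library lay far from the rest, where chance alone flags about 1 in 20. Both concerned Fam107a. Control library 4 was lowest at 361 CPM with the next at 391 CPM, a gap of 0.64 of the group's range against a critical value of 0.568. Pair-fed library 2 was highest at 339 CPM with the next at 291 CPM, a gap of 0.628 of the range against a critical value of 0.625.

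The change against control differed between the pair-fed and the ad libitum risperidone group, by the edgeR test of that difference, for Fam107a (−0.57), Mertk (−0.62), Htra1 (−0.43), Sdc4 (−0.36) and Glul (−0.30), with adjusted p values from 1.42e-05 to 0.00121 and all 6 pair-fed libraries below every ad libitum library. Fam107a, Mertk, Htra1, Sdc4 and Glul were chosen on their change in pair-fed against control mice, which enters this difference. Its test is therefore not independent of that choice. Over all genes tested, 0.285% were called lower in this comparison, and 0.369% had pair-fed libraries wholly below the ad libitum ones. Among the other named genes the change against control differed for Cbs (−0.27, adjusted p = 0.00757), Cdkn1a (−0.81, adjusted p = 1.09e-06) and Plin4 (−1.67, adjusted p = 0.000279). Their lists were chosen with earlier results of these data known.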

How the results depend on the processing

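The calls of Fam107a, Glul, Mertk, Htra1 and Sdc4 between the risperidone groups held in each of 31 other settings, and the number of members called there stayed within 5 to 6. In ad libitum risperidone against control, 1 member (F3) was called in the reported fit, 0 with the replicate block, 0 in a fit to the 2 groups alone and 0 to 1 when 1 library was left out. For the 35 other astrocyte genes the count became 1 with DESeq2 in ad libitum against control (0 as reported), 1 without a low-count filter and 3 with limma-voom, in the fit to 2 groups and without ad libitum libraries 1 and 3 in pair-fed against control (2 as reported), and 2 with limma-voom and 3 after dropping ad libitum libraries 1 and 3 in pair-fed against ad libitum mice (1 as reported). The number of pairs correlated by Pearson's r was 0 to 3 when 1 library was left out (3 without ad libitum library 3, and 1 without control library 3 or 5 or pair-fed library 4). The cause of these shifts was not tested. Values near 0 turned sign for Aqp4, to 0.0335 without ad libitum libraries 1 and 3 in ad libitum against control and within −0.076 to 0.0372 when 1 library was left out in pair-fed against ad libitum mice, and for Aldh1l1, within −0.0326 to 0.014 when 1 library was left out in pair-fed against control. Deviations of libraries with the same replicate number had correlations from −0.158 to 0.304, and 0 of 20 libraries correlated best with their own number. Such correlations cannot tell whether the libraries were paired by design. The replicate block lowered the calls over all genes between the risperidone groups from 51 to 37 lower and from 20 to 11 higher. In ad libitum against control it left 1 lower and 0 higher. Over all genes, lower and higher calls were 8 and 3 in ad libitum against control as reported, 70 and 40 with DESeq2, 34 and 17 with limma-voom, 3 and 0 in the fit to 2 groups, 26 and 22 without ad libitum libraries 1 and 3, and 0 and 0 without any 1 of the libraries whose removal ended the F3 call. In pair-fed against control they were 78 and 9 as reported, 114 and 20 with DESeq2, 172 and 51 with limma-voom, 188 and 57 in the fit to 2 groups and 196 and 54 without those 2 libraries, and in pair-fed against ad libitum mice 51 and 20 as reported, 118 and 52, 91 and 48, 23 and 8, and 99 and 43. The lowest count of a member in any library was 277 (Mertk, ad libitum library 3), so depth limits Mertk most. Without a pair-fed control group, diet and feeding cannot be told apart in the comparison of pair-fed with control mice. In pair-fed against ad libitum mice, the amounts of food and of risperidone eaten cannot be told apart, since the drug came in the diet.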
